A study of Rattus norvegicus with 20 samples.

Results

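The genes described here work in the endoplasmic reticulum (ER), where secreted and membrane proteins are threaded in, folded and checked. A list of 53 gene names was matched to the names in the array table, and 40 rows were found. Of these, 35 were kept because they were detected (detection p under 0.01) on at least 8 of the 20 arrays, out of 10488 genes kept in all. They comprised 16 chaperones and folding enzymes, 7 parts of the translocon and signal peptidase, 6 stress sensors and transcription factors, 3 genes for degradation of misfolded proteins and 3 calcium-binding or calcium-handling proteins. Of the 35 genes, 33 were detected on all 20 arrays, while Uggt1 was detected on 18 and Wfs1 on 13.

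The arrays measured lung RNA from 20 male CDF Fisher 344 rats, 3 months old, 1 Illumina bead array per rat. The 8 silica rats (identifiers 81 to 88) had inhaled crystalline silica, a mineral dust, in 5 daily sessions of 6 h at 15 mg/m3, and were killed 16 h after the last session. The 12 air rats were controls for the same exposure, with identifiers in 3 runs of 4 (89 to 92, 105 to 108 and 137 to 140). Whole lung was used, so fewer cells of a type and less RNA per cell cannot be told apart.

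Proteins enter the ER through the Sec61 translocon and are bound there by chaperones, of which Hspa5 (BiP) is the best known. When unfolded proteins build up, the membrane sensors Ern1 (IRE1), Eif2ak3 (PERK) and Atf6 start the unfolded protein response. Ern1 splices the mRNA of the transcription factor Xbp1, Eif2ak3 leads to translation of Atf4 and through it to Ddit3 (CHOP), and Atf6 and Xbp1 switch on chaperone genes. In the lung, type 2 cells, which make surfactant, club cells and plasma cells carry a heavy load of secreted protein.

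A promoter element of this response is the ER stress response element (ERSE), spelled CCAAT, then 9 bases of any kind, then CCACG, to which NF-Y and Atf6 or Xbp1 bind. It was searched on both strands in RefSeq promoters of the rat build GRCr8, each running from 250 bases before to 50 after the gene's start. It was found in 22 of 33469 promoters (0.0657%), and 7 of those 22 belonged to the genes described here. The windows around it are shown because these 7 genes hold 5 of the 11 that were higher in silica lungs. Capitals mark the element, which in Calr, Creld2 and the second Hsp90b1 window runs in the other direction and so reads CGTGG first and ATTGG last. Each window is given 5′ to 3′ on the gene's strand.
Hspa5, chr3:38452953-38453011, plus strand: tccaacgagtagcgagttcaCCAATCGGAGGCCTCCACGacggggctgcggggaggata
Canx, chr10:35158049-35158107, minus strand: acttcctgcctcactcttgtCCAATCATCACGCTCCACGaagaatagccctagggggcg
Dnajc3, chr15:102432514-102432572, plus strand: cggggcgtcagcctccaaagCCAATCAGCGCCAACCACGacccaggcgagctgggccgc
Creld2, chr7:121789219-121789277, plus strand: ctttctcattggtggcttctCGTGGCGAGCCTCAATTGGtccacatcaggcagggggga
Xbp1, chr14:84604538-84604596, plus strand: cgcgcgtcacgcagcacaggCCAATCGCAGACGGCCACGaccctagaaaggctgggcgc
Hsp90b1, chr7:23012431-23012489, minus strand: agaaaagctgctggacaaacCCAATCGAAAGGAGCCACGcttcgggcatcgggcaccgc
Hsp90b1, chr7:23012327-23012385, minus strand: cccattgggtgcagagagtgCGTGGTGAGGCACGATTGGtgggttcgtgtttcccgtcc
Calr, chr19:40213117-40213173, plus strand: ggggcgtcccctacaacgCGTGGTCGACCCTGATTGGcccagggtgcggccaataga
The element lay closest to the gene's start in Hspa5 and farthest from it in Calr and Canx.

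Further elements were searched the same way. ERSE-II, spelled ATTGG, any 1 base, then CCACG, was found in 17 promoters (0.0508%), 4 of them of the genes sought: Herpud1, Nucb1, Dnajb11 and Hyou1, of which Dnajb11 and Hyou1 were not tested. The unfolded protein response element (UPRE), spelled TGACGTGG, was found in 199 (0.595%), among them those of Vcp and Hyou1. A core for Atf4, spelled TGATGCAA, was found in 266 (0.795%), among them that of Herpud1. Windows follow for the tested genes of the list with ERSE-II or a UPRE, with the element in capitals. Herpud1 and Nucb1 were not called, and Vcp, the 1 tested gene of the list with a UPRE, was higher in silica lungs.
Herpud1, ERSE-II, chr19:10614801-10614851, minus strand: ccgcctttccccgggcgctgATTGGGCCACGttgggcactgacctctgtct
Nucb1, ERSE-II in the other direction, chr1:105125459-105125509, minus strand: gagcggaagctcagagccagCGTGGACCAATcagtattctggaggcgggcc
Vcp, UPRE, chr5:62025583-62025630, minus strand: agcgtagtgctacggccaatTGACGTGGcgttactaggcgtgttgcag
A match of letters describes the sequence, and no binding was measured.

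Across the arrays, 9434 to 10840 genes were detected, the median intensity before normalization was 67.0 to 98.6, and a median of 40 to 43 beads stood behind each value. Pairs of arrays correlated across genes at 0.978 to 0.996, genes not being independent replicates. The 3 arrays of highest inferred background were those of silica rat 86 and air rats 106 and 139. The tissue label held: all 10 type 2 and club cell markers looked for were detected often enough to be tested.

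Silica and air lungs were compared to see which ER genes differ right after inhalation of a toxic dust. Some chaperones (6 of 16) and translocon genes (3 of 7) were modestly higher in silica lungs, as were Xbp1 and Vcp mRNA, while Hspa13 was lower and Atf4, Ddit3 and Eif2ak3 were not called. Of the 35 genes, 11 were higher (31.4%) and 1 was lower at a limma adjusted p under 0.05. Over all genes tested, 11.7% were called higher, 12.7% lower and 24.5% either way. These shares depended on how the arrays were scaled: centred on their medians in place of quantile normalization, 1 of the 35 genes was called higher (2.86%), beside 5.44% of all genes tested. The median silica minus air difference was 0.10 over the 35 genes, on the log2 scale, and -0.02 over all genes tested. Differences above 0 were found for 26 of the 35 genes (74.3%), beside 45.4% of all genes tested. No gene of the list was called at 1.5-fold or more, which 1.33% of all genes tested were.

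The share of calls also depended on signal. Of the 27 genes of the list with a mean log2 intensity over 9, 10 were called higher and 0 lower. Hspa13, the gene called lower, lay just under that bound, with means of 8.82 in silica and 8.96 in air lungs. Of all 3539 genes that bright, 30% were called, 14% higher and 16% lower. The chart of differences with their intervals shows that most of the 35 lie within 0.2 of no change on the log2 scale.

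**Figure D1:**
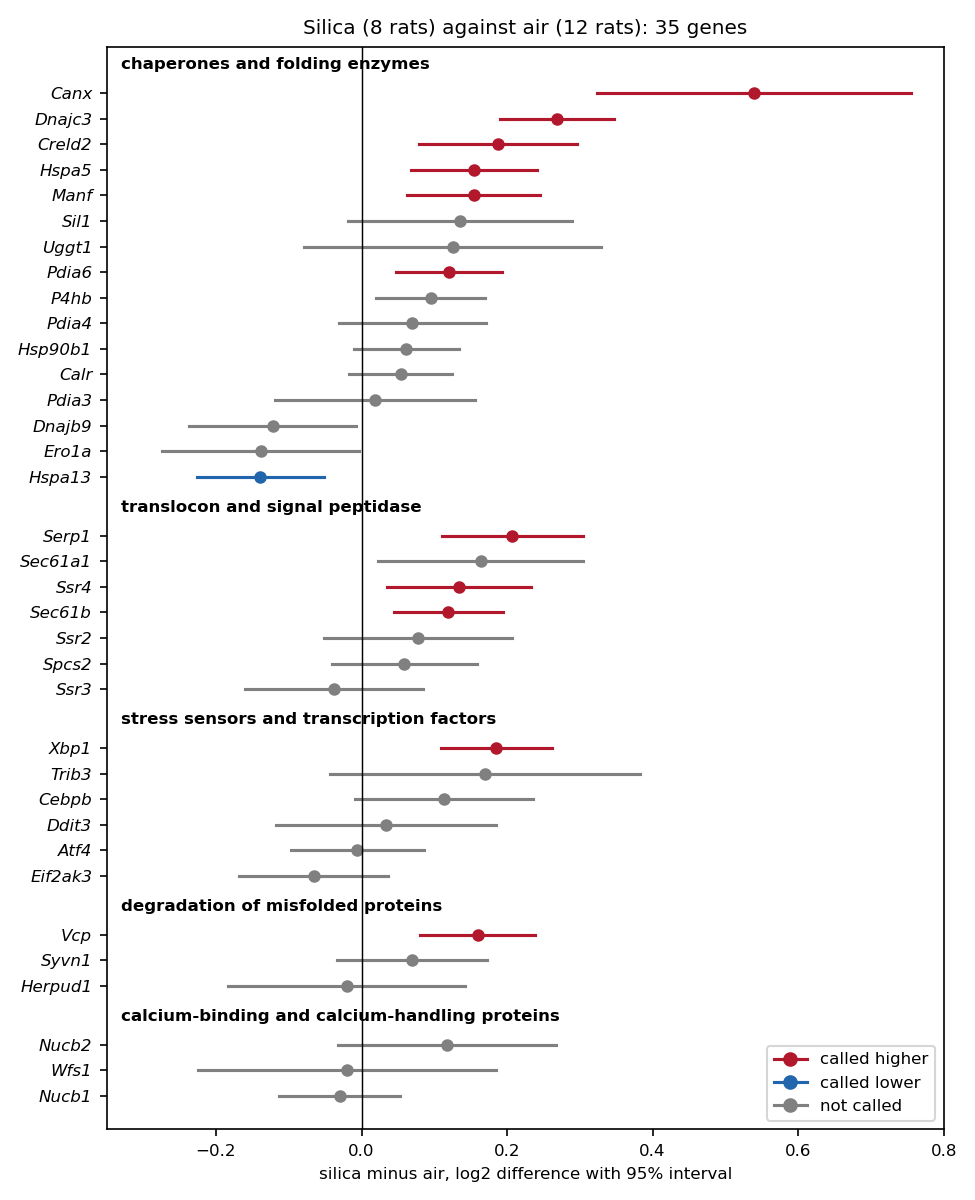
Silica minus air log2 difference of the 35 genes, with 95% intervals, grouped by role; red is called higher, blue called lower and grey not called. Canx (0.54) and Dnajc3 (0.27) lie farthest to the right, and Hspa13 (-0.14) is the gene called lower.

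Among the 16 chaperones and folding enzymes, 6 were higher and 1 was lower in silica lungs, with a median difference of 0.11. Canx (calnexin, CANX in the table, ILMN_1352468), a membrane lectin chaperone that holds new glycoproteins, differed most. Its log2 intensity had a lowest, median and highest value of 7.89, 8.00 and 8.25 in silica lungs, against 6.85, 7.56 and 7.87 in air lungs. All 8 silica arrays were thus above all 12 air arrays, a pattern seen in 1 of the 35 genes and in 1.83% of all genes tested. The difference was 0.54 ± 0.10 (SE), or 1.45-fold, with a limma adjusted p of 0.000547. The size depended on the background correction, at 0.31 with limma's default inference of the controls and 0.38 in the authors' deposited log2 values, and Canx was called in both. Its median intensity before correction was 260 units, and it varied more in air (SD 0.30, n = 12) than in silica lungs (SD 0.13, n = 8).

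Dnajc3 (p58IPK, DNAJC3 in the table, ILMN_1368822), a co-chaperone of Hspa5 that also restrains Eif2ak3, had the smallest p of the 35. Silica lungs had 10.66, 10.71 and 10.83 as lowest, median and highest log2 intensity, against 10.38, 10.44 and 10.66 in air lungs. Only air rat 107 reached into the silica range, and 7 of 8 silica rats lay above every air rat. The difference was 0.27 ± 0.04 (SE), or 1.20-fold, with an adjusted p of 1.66e-05.

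Hspa5 (HSPA5 in the table, ILMN_1351240), the chaperone most often read as a gauge of ER stress, was higher by a small margin. Silica lungs ran over 12.90, 13.05 and 13.12 (lowest, median and highest log2 intensity), against 12.69, 12.88 and 13.00 in air lungs. The ranges overlapped, with 6 of 8 silica rats above every air rat and all 8 above the air median. The difference was 0.15 ± 0.04 (SE), or 1.11-fold, with an adjusted p of 0.00889 and a 95% interval from 0.07 to 0.24.

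Creld2 and Manf, small ER proteins known as stress-inducible, were both higher. For Creld2 (ILMN_1373530) the lowest, median and highest log2 intensity was 9.40, 9.67 and 9.80 in silica lungs, against 9.28, 9.44 and 9.62 in air lungs. The difference was 0.19 ± 0.05 (SE), with an adjusted p of 0.0109. Manf (ILMN_1370585, under its old name Armet) had 9.42, 9.65 and 9.70 in silica lungs, against 9.33, 9.46 and 9.60 in air lungs. The difference was 0.15 ± 0.04 (SE), with an adjusted p of 0.0128. In both genes the low silica value was that of rat 86, one of the arrays of highest background, and all other silica rats were above the air median.

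Pdia6, a protein disulfide isomerase that also binds Hspa5, was higher in its main row (ILMN_1376346). Its log2 intensity was 12.41, 12.48 and 12.58 (lowest, median and highest) in silica lungs, against 12.26, 12.38 and 12.54 in air lungs. All 8 silica rats were above the air median, but only 1 was above air rat 89, the highest control. The difference was 0.12 ± 0.04 (SE), with an adjusted p of 0.0149. A second row of the same gene (ILMN_1375568, under the old name Txndc7) differed by 0.06 ± 0.04 (SE) and was not called, with an adjusted p of 0.301.

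Hspa13 (ILMN_1374798, under its old name Stch), an Hsp70-like ATPase of the microsomes, was the one gene of the list called lower. Silica lungs had 8.76, 8.82 and 8.93 as lowest, median and highest log2 intensity, against 8.77, 8.97 and 9.11 in air lungs. All 8 silica rats were below the air median, and 3 were below every air rat. It differed by -0.14 ± 0.04 (SE), with an adjusted p of 0.0182.

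The other 9 chaperones and folding enzymes were not called. P4hb (ILMN_1360433), the protein disulfide isomerase, came closest: its lowest, median and highest log2 intensity was 12.53, 12.77 and 12.82 in silica lungs, against 12.52, 12.65 and 12.69 in air lungs. It differed by 0.10 ± 0.04 (SE) with an adjusted p of 0.0578, and 5 silica rats were above every air rat while rat 84 lay near the bottom of the air range. Without silica rat 84 P4hb was called, at 0.12 and an adjusted p of 0.00874, and without silica rat 86 likewise, at 0.11 and 0.0389.

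Of the large lumenal chaperones, Hsp90b1 (GRP94) differed by 0.06 ± 0.04 and Calr (calreticulin), the soluble lectin partner of Canx, by 0.05 ± 0.03 (log2 differences ± SE). Both intervals reached 0, running from -0.01 to 0.13 for Hsp90b1 and from -0.02 to 0.12 for Calr. The oxidoreductases Pdia4 (0.07 ± 0.05) and Pdia3 (0.02 ± 0.07) were not called. Neither were the nucleotide exchange factor Sil1 (0.14 ± 0.07) nor the glycoprotein folding sensor Uggt1 (0.13 ± 0.10), although with array weights Sil1 was called, at 0.17 and an adjusted p of 0.0426. On the negative side stood Dnajb9 (-0.12 ± 0.06), a co-chaperone known as an Xbp1 target, and Ero1a (-0.14 ± 0.07), the oxidase that recharges protein disulfide isomerases. Their adjusted p-values were 0.112 and 0.129.

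**Figure D2:**
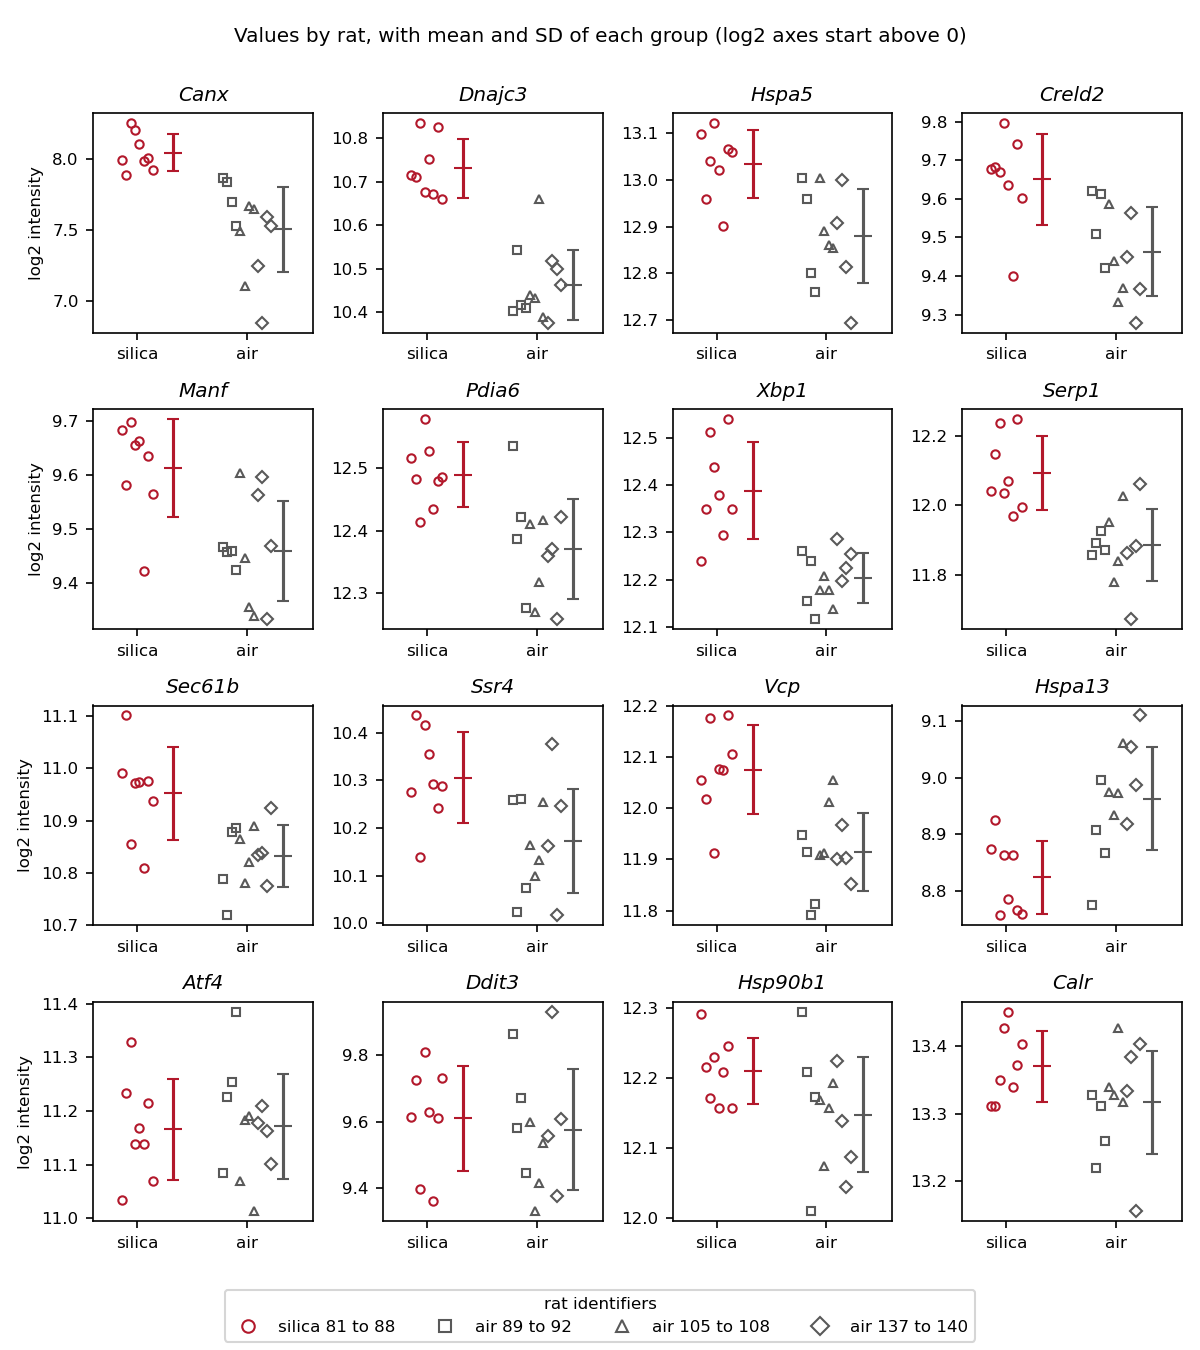
Log2 intensity by rat for the 12 genes called and for Atf4, Ddit3, Hsp90b1 and Calr, silica left of air, with the mean and SD of each group beside the points and marker shapes for the runs of rat identifiers. Canx separates the groups fully, most called genes overlap at the edges, and Atf4 and Ddit3 cover the same range in both groups.

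Of the 7 translocon and signal peptidase genes, 3 were higher in silica lungs and none was called lower, with a median difference of 0.12. Serp1 (RAMP4, SERP1 in the table, ILMN_1354484), a small protein that sits at the translocon and protects membrane proteins under stress, was the clearest. Its lowest, median and highest log2 intensity was 11.97, 12.05 and 12.25 in silica lungs, against 11.67, 11.88 and 12.06 in air lungs. Every silica rat was above the air median and 4 were above every air rat. The difference was 0.21 ± 0.05 (SE), with an adjusted p of 0.00224.

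Sec61b (ILMN_1373509), a subunit of the translocon channel, had 10.81, 10.97 and 11.10 in silica lungs, against 10.72, 10.84 and 10.92 in air lungs (lowest, median and highest log2 intensity). With 6 of 8 silica rats above every air rat, it differed by 0.12 ± 0.04 (SE), with an adjusted p of 0.0188. Ssr4 (ILMN_1370483), a subunit of the translocon-associated TRAP complex, had 10.14, 10.29 and 10.44 in silica lungs, against 10.02, 10.16 and 10.38 in air lungs. The groups overlapped widely, and Ssr4 differed by 0.13 ± 0.05 (SE) with an adjusted p of 0.0433. This call was lost when any 1 of 13 rats was left out (silica 81, 82, 84, 85, 86 and 88, and air 90, 92, 105, 106, 107, 137 and 139), with values from 0.12 to 0.14 and adjusted p-values from 0.0551 to 0.0941.

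Sec61a1 (ILMN_1367801), the pore-forming subunit, was the uncalled gene of smallest p here. It had 6.27, 6.34 and 6.63 in silica lungs, against 6.00, 6.19 and 6.47 in air lungs (lowest, median and highest log2 intensity). All 8 silica rats were above the air median, and the difference was 0.16 ± 0.07 (SE), with an adjusted p of 0.0847. Without air rat 91 it was called, at 0.18 and an adjusted p of 0.0465. Its median intensity was 118 units. The signal peptidase subunit Spcs2 (0.06 ± 0.05) and the TRAP subunits Ssr2 (0.08 ± 0.06) and Ssr3 (-0.04 ± 0.06) were not called.

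Among the 6 stress sensors and transcription factors, Xbp1 alone was called, higher in silica lungs, and the median difference was 0.07. For Xbp1 (XBP1 in the table, ILMN_1373017), the factor that drives much of the ER chaperone and secretory program, silica lungs had 12.24, 12.37 and 12.54 as lowest, median and highest log2 intensity, against 12.12, 12.20 and 12.29 in air lungs. Silica rats were all above the air median, 7 of 8 above every air rat. The difference was 0.19 ± 0.04 (SE), or 1.14-fold, with an adjusted p of 0.00075. The table gives 1 value for Xbp1, and spliced and unspliced mRNA were not separated here.

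The listed genes of the Eif2ak3 arm were not called by mRNA level. The activity of Eif2ak3 and the translation of Atf4 were not measured. Atf4 (ILMN_1375100), the factor translated when Eif2ak3 is active, had 11.03, 11.15 and 11.33 in silica lungs, against 11.01, 11.18 and 11.38 in air lungs (lowest, median and highest log2 intensity). Its difference was -0.01 ± 0.04 (SE), with a 95% interval from -0.10 to 0.09. Ddit3 (ILMN_1349910), a pro-apoptotic factor downstream of Atf4, had 9.36, 9.62 and 9.81 in silica lungs, against 9.33, 9.57 and 9.93 in air lungs. Its difference was 0.03 ± 0.07 (SE), with an interval from -0.12 to 0.18. Eif2ak3 itself differed by -0.07 ± 0.05, and Trib3, a pseudokinase induced through Atf4 and Ddit3, by 0.17 ± 0.10 with an interval from -0.04 to 0.38.

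Cebpb (ILMN_1371344), a factor shared by stress and inflammatory signalling, was the uncalled gene of smallest p in this role. It had 12.70, 12.87 and 13.10 in silica lungs, against 12.61, 12.73 and 13.10 in air lungs (lowest, median and highest log2 intensity). The difference was 0.11 ± 0.06 (SE), with an adjusted p of 0.172. Air rat 91 lay close to the highest silica rat, and without it Cebpb was called, at 0.14 and an adjusted p of 0.0486.

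Of the 3 degradation genes, Vcp (p97, VCP in the table, ILMN_1363637), the ATPase that pulls misfolded proteins out of the ER membrane, was higher. Silica lungs had 11.91, 12.08 and 12.18 as lowest, median and highest log2 intensity, against 11.79, 11.91 and 12.06 in air lungs. Of the silica rats, 5 were above every air rat, and the difference was 0.16 ± 0.04 (SE), with an adjusted p of 0.00366. Syvn1 (HRD1, ILMN_1351199), the ER ubiquitin ligase, had 10.50, 10.69 and 10.81 in silica lungs, against 10.33, 10.63 and 10.74 in air lungs. It differed by 0.07 ± 0.05 (SE) and was not called (adjusted p = 0.339). Herpud1, which links that ligase to its substrates and is a known target of Atf6 and Atf4, differed by -0.02 ± 0.08.

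None of the 3 calcium-binding and calcium-handling genes was called, and 1 of the 3 differences was above 0. Nucb2 (nesfatin precursor, ILMN_1354242) had 9.53, 9.62 and 10.08 in silica lungs, against 9.35, 9.55 and 9.84 in air lungs (lowest, median and highest log2 intensity). The high value was that of silica rat 84, and the difference was 0.12 ± 0.07 (SE), with an adjusted p of 0.253. Nucb1 (-0.03 ± 0.04) and Wfs1 (wolframin, -0.02 ± 0.10) were not called. Whether the roles differ from each other in their share of calls was not tested.

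By rat, values are given for the 11 genes called higher, which were called because silica rats lay above air rats, so the counts describe the animals and support nothing further. Of the silica rats, 5 (81, 82, 85, 87 and 88) were above the air mean in all 11, and the rats 83 and 84 in 10. Silica rat 86 was above the air mean in 8 and was the lowest silica rat in 5. Among air rats the same count ran between 2 and 8 of the 11, and air rat 139 was the lowest of its group in 4. Rats 86 and 139 carry the 2 arrays of highest inferred background. Without those 2 and air rat 106, 11 of the 12 calls were kept, the exception being Ssr4, at 0.11 with an adjusted p of 0.130.

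**Figure D3:**
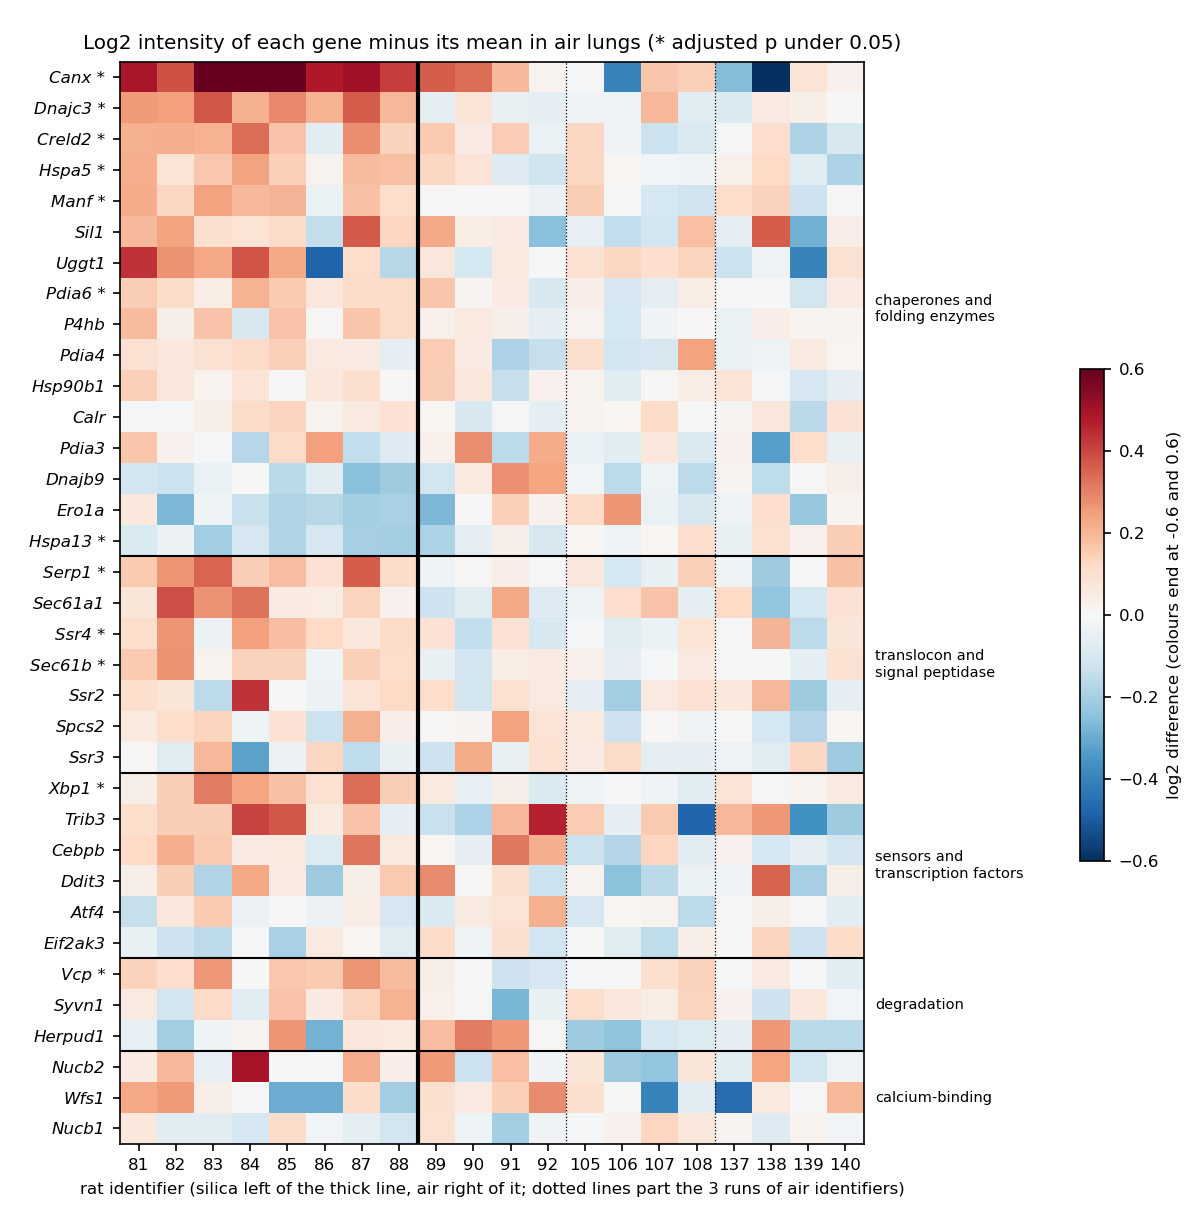
Log2 intensity of each gene minus its mean in air lungs, by rat, genes grouped by role and ordered by difference; silica rats are left of the thick line, and dotted lines part the runs of air identifiers. Canx and Dnajc3 are red in every silica column, and Dnajb9 and Hspa13 are blue in most silica columns. Silica rat 86 is paler than its group in Hspa5 and lies slightly below the air mean in Creld2 and Manf.

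The air rats came in 3 runs of identifiers, of which only 89 to 92 follow the silica rats directly, so silica was also set against each run in a single 4-group model. These comparisons share the silica arrays and are given side by side. Of the 35 genes, 25 had the same sign against every run. Against air rats 89 to 92, 3 genes were higher (Dnajc3, Xbp1 and Vcp) and 1 was lower, where 7.32% of all genes tested were called, 4.15% higher and 3.18% lower. Against 105 to 108, 6 were higher and 1 was lower, beside 17.4% of all genes, 8.4% higher and 8.95% lower. Against 137 to 140, 8 were higher and 1 was lower, beside 22.1% of all genes, 11% higher and 11.1% lower.

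Dnajc3 and Xbp1 were called against each of the 3 runs, as were 4.95% of all genes tested. Dnajc3 differed by 0.29, 0.25 and 0.27 from the runs 89 to 92, 105 to 108 and 137 to 140, with a largest adjusted p of 0.00204. Xbp1 differed by 0.20, 0.21 and 0.15, with a largest adjusted p of 0.0378. Both thus gave nearly the same value whichever controls were used.

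For other genes the call depended on the controls. Canx differed by 0.31, 0.56 and 0.74, and the first was not called (adjusted p = 0.132). Hspa5 differed by 0.15, 0.13 and 0.18, with adjusted p-values of 0.122, 0.125 and 0.0289, so its size held while 1 of 3 calls did. Creld2 differed by 0.11, 0.22 and 0.24, with the first not called (adjusted p = 0.396), Hspa13 by -0.06, -0.16 and -0.19, with the first not called (adjusted p = 0.573), and Vcp by 0.21, 0.10 and 0.17, with the second not called (adjusted p = 0.166). Sec61b differed by 0.13, 0.11 and 0.11 (adjusted p = 0.117, 0.130 and 0.123) and was called against no run. Ssr4 was called against none either, at 0.15, 0.14 and 0.11 (adjusted p = 0.183, 0.144 and 0.262). Serp1 differed by 0.21, 0.19 and 0.22, with the first not called (adjusted p = 0.0566). Manf was called against 105 to 108 only (adjusted p = 0.0470) and Pdia6 against 137 to 140 only (adjusted p = 0.0427). The gene called lower against 89 to 92 was Dnajb9, by -0.24 (adjusted p = 0.0326), against -0.03 and -0.10 from the other runs. None of the 35 genes differed among the 3 air runs in limma's moderated F test, where 46 of all genes tested did (0.439%). The smallest adjusted p of that test was 0.202, for Herpud1.

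**Figure D4:**
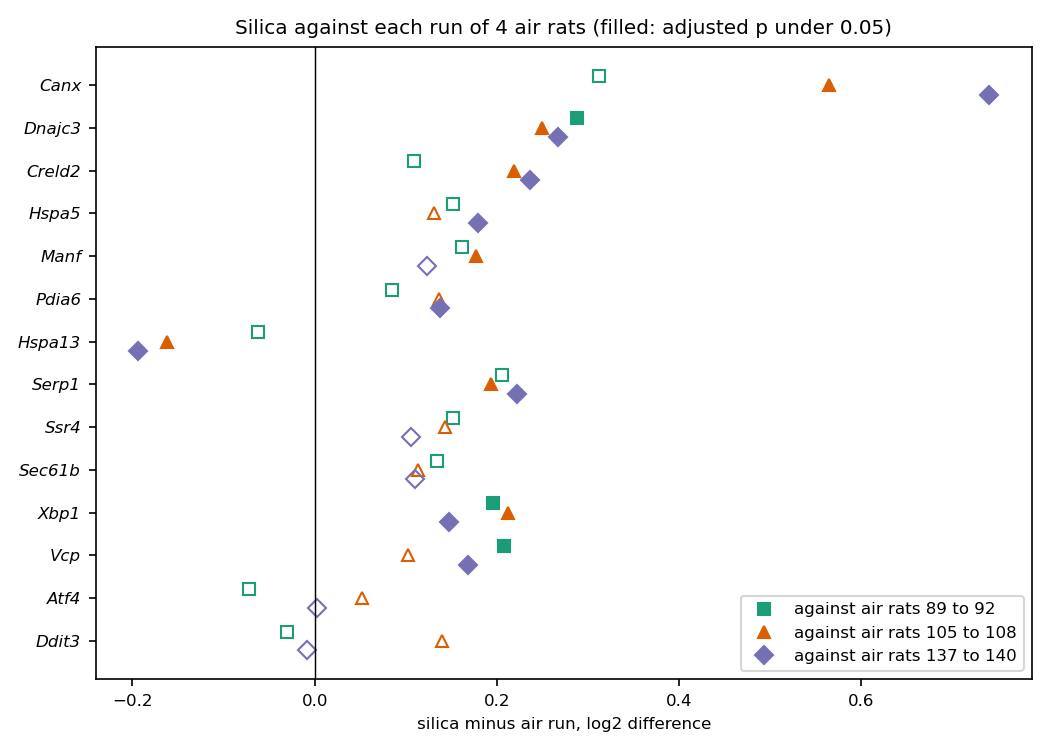
Silica minus each run of 4 air rats, log2 difference, for the 12 called genes and for Atf4 and Ddit3; filled markers have an adjusted p under 0.05 in the 4-group model. The markers of Dnajc3 and Xbp1 are filled for every run, those of Atf4 and Ddit3 are open, and Canx spreads from 0.31 to 0.74.

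Set against the promoter sequences shown above, 5 of the 7 genes with an ERSE were called higher (Canx, Dnajc3, Creld2, Xbp1 and Hspa5), with Hsp90b1 and Calr not called. Of the 22 tested genes of the list with a promoter sequence but no ERSE in it, 4 were called higher (Serp1, Sec61b, Ssr4 and Vcp). Manf and Pdia6, also called higher, had no promoter sequence to search. Outside the list, 6 tested genes had an ERSE, of which 2 were called higher and 3 lower. Over all genes tested, 11.7% were called higher and 12.7% lower. The 2 tested genes of the list with ERSE-II, Herpud1 and Nucb1, differed by -0.02 and -0.03. Of 4 tested genes outside the list with ERSE-II, 1 was called higher and 0 lower. With a UPRE, 8 of 72 tested genes outside the list were higher and 14 lower. With the Atf4 core, 10 of 52 were higher and 6 lower. No test was made of these counts.

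**Figure D5:**
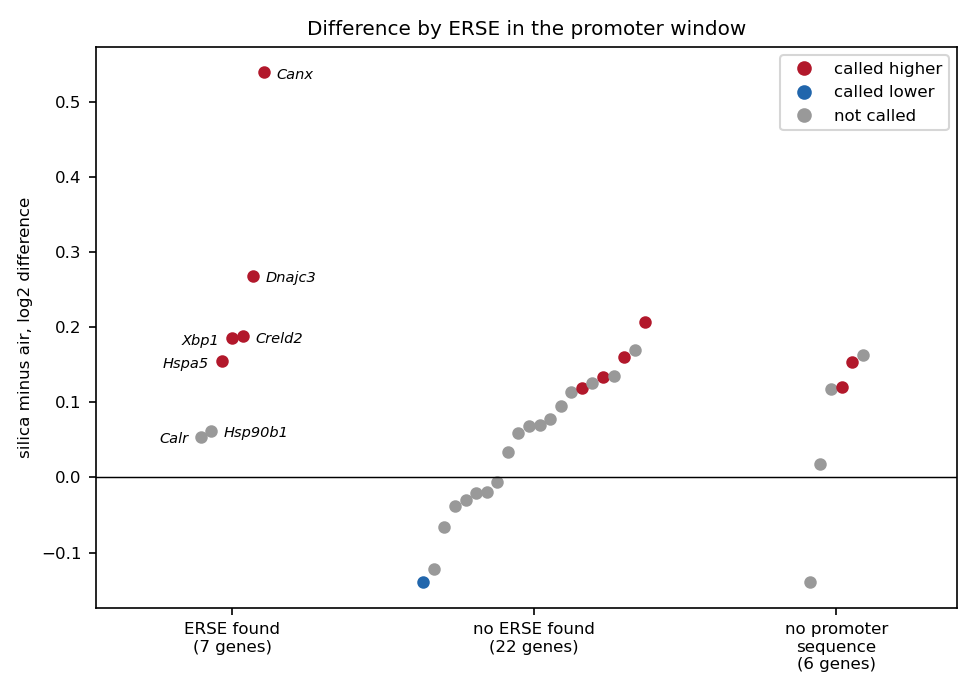
Silica minus air log2 difference of the 35 genes, parted by whether the ERSE letters were found in the promoter window; red is called higher, blue called lower and grey not called. The 7 genes with the element run from Calr (0.05) to Canx (0.54), and the genes without it spread on both sides of 0.

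The other listed genes were correlated with Hspa5 among rats of 1 group, where 8 or 12 rats give little power. Over 68 correlations (34 genes in each group), 0 passed Benjamini-Hochberg adjustment in either group, where the smallest adjusted p was 0.587 by Pearson's r and 0.836 by Spearman's rho. At an unadjusted p under 0.05, 2 did in silica and 1 in air rats by Pearson's r. The gene with the highest r in both groups was Creld2. In silica rats its r was 0.79 (exact permutation p = 0.0204, n = 8) and rho 0.64 (p = 0.0962), with r at 0.69 without the 2 rats farthest from the median of Hspa5. In air rats r was 0.61 (permutation p = 0.0372, n = 12) and rho 0.62 (p = 0.0361), with r at 0.49 without the 2 farthest rats and 0.70 after the means of the identifier runs were removed.

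An r over 0.5 with Hspa5 was found for 7 of the 34 genes (20.6%) in silica rats and for 3 (8.82%) in air rats. Over all other genes tested the shares were 15.8% in silica and 4.33% in air rats. The median r over the 34 genes was 0.29 in silica and 0.12 in air rats, beside 0.07 and 0.02 over all other genes tested. It was above 0 for 25 of the 34 genes in silica and for 22 in air rats. The r of Manf in silica rats, 0.77, rested on 2 animals and was near 0 without them. Xbp1 had an r with Hspa5 of 0.28 in silica and of 0.0036 in air rats. Dnajc3 had 0.15 and 0.06.

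The other 13 names of the list had no row under that name. Hsp90b1 and Manf were present under their old names, Spcs3, Derl1 and Derl2 were not analysed here, and the remaining 8 genes, with a second row of Pdia6, stood under other names that the matching rule did not reach. Of these 9 rows, 7 were tested and 1 was called, that of Sdf2l1 (ILMN_1358154), a partner of Hspa5 complexes. Its lowest, median and highest log2 intensity was 7.09, 7.40 and 7.50 in silica lungs, against 6.65, 6.96 and 7.34 in air lungs. The difference was 0.39 ± 0.08 (SE), with an adjusted p of 0.000876. The rows of Edem1 (0.06 ± 0.12), Ppp1r15a (-0.03 ± 0.06), Sec62 (-0.01 ± 0.04), Sel1l (-0.01 ± 0.06) and Spcs1 (-0.0042 ± 0.044) were not called, nor was the second Pdia6 row given above. Ern1 and Sec63 were not detected often enough to be tested.

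The matching rule found 5 rows that were never detected: Atf6, Dnajb11, Hyou1, Sec61g and Ssr1. Atf6, Hyou1, Sec61g and Ssr1 had median intensities near the background. Dnajb11 read 307 to 459 intensity units in silica and 258 to 492 in air lungs, but its row averages several probes and its detection p did not fall below 0.0346. So for Atf6, Hyou1 and Dnajb11, usual gauges of this response, no test was made.

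In 5 further lists of the secretory pathway, 14 of 55 tested genes were called (25.5%), beside 24.5% of all genes tested. Of the 55, 10 were higher (18.2%) and 4 lower (7.27%), beside 11.7% and 12.7% of all genes tested. In the oligosaccharyltransferase, which adds the sugar tree to new proteins, 0 of 6 tested genes were called, and Rpn1 came closest (0.09 ± 0.04, adjusted p = 0.0631). Of 6 genes of the signal recognition particle and its receptor, 1 was higher (Srp19, 0.10 ± 0.03). Of 15 genes of the COPII coat and cargo receptors, which carry folded proteins out of the ER, 3 were higher and none lower: Sec24a (0.20 ± 0.05), Sec24d (0.18 ± 0.05) and Lman2 (0.12 ± 0.04). The median difference there was 0.08.

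Of 13 other genes tested for disulfide and prolyl isomerases and prolyl hydroxylases, 3 were higher and 3 lower, with a median of -0.03. Among those higher was P4ha1 (0.15 ± 0.05), a collagen prolyl hydroxylase subunit. Lower were the prolyl isomerases Fkbp7 (-0.23 ± 0.05) and Fkbp10 (-0.18 ± 0.05), of which Fkbp10 folds collagen. Of 15 glucosidases and further degradation genes, 3 were higher and 1 was lower, among them Ubxn4 (0.18 ± 0.04) and Edem2 (0.20 ± 0.05) higher and Uggt2 (-0.23 ± 0.07) lower.

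Targets of the integrated stress response, the program run by Atf4, also went both ways, with 4 of 14 higher (28.6%) and 2 lower (14.3%), beside 11.7% and 12.7% of all genes tested. The amino acid transporter Slc7a5 was higher by 0.50 ± 0.07 (adjusted p = 2.64e-05) and the tryptophan tRNA ligase Wars1 by 0.22 ± 0.05 (adjusted p = 0.00408). The lipoprotein receptor Vldlr was lower, at -0.20 ± 0.06 (adjusted p = 0.0182).

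Markers of other cells moved between the groups as well. Of 9 tested neutrophil markers, 5 were higher and none lower, those of smallest p being Cd177 (2.70 ± 0.21), Trem1 (0.59 ± 0.08) and S100a8 (0.37 ± 0.09), and their summed level (log2) was 12.42 to 12.77 in silica and 11.29 to 11.87 in air lungs. Of 7 macrophage markers, 5 were higher and none lower, those of smallest p being Cd68 (0.92 ± 0.11), Lgals3 (0.49 ± 0.08) and Mrc1 (0.36 ± 0.09), with a summed level of 14.23 to 14.43 in silica and 13.30 to 14.22 in air lungs. Higher were 55.6% of the neutrophil and 71.4% of the macrophage markers, beside 11.7% of all genes tested. The neutrophil markers Mmp8 (0.26 ± 0.11), Ncf1 (0.16 ± 0.08), Mmp9 (0.06 ± 0.10) and Camp (0.02 ± 0.10) were not called. Neither were the macrophage markers Adgre1 (-0.17 ± 0.09) and Fabp4 (0.06 ± 0.14). The neutrophil genes S100a9, Fpr1, Mpo and Ela2 and the macrophage genes Marco, Msr1, Cd163 and Chi3l3 were not detected often enough to be tested.

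Of 10 type 2 and club cell markers, 4 were higher and none lower, among them Sftpd (0.58 ± 0.09), Lamp3 (0.34 ± 0.06) and Abca3 (0.26 ± 0.05). The surfactant genes Sftpa1 (0.12 ± 0.05), Sftpb (-0.08 ± 0.06) and Sftpc (0.04 ± 0.04) were not called. Neither were the club cell markers Scgb1a1 (0.005 ± 0.040), Scgb3a2 (0.12 ± 0.10) and Cyp2f4 (-0.04 ± 0.26). The summed level of the 10 markers was 16.50 to 16.64 in silica and 16.42 to 16.57 in air lungs. Of 9 type 1 and endothelial markers, 0 were higher and 4 lower, among them Ager (-0.20 ± 0.04), Vwf (-0.22 ± 0.06) and Aqp5 (-0.21 ± 0.06), with a summed level of 15.59 to 15.71 in silica and 15.71 to 15.85 in air lungs. Of 4 genes listed as plasma cell markers, 0 were higher and 1 was lower: Cd79b (-0.28 ± 0.10), a B cell receptor gene. Sdc1 (0.11 ± 0.05), Jchain (0.06 ± 0.09) and Mzb1 (-0.02 ± 0.09) were not called. The summed level of the 4 was 11.37 to 11.65 in silica and 11.18 to 11.63 in air lungs. Prdm1, Irf4 and Tnfrsf17 were not detected often enough to be tested. The part of these cells in the differences of the ER genes was not tested.

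With median centring of the arrays, 1 of the 12 calls was kept, that of Canx, and all 12 genes kept their sign. The differences of Creld2 (0.12), Manf (0.09), Ssr4 (0.07) and Sec61b (0.07) were smaller by over 1.5 times. Standard errors were larger, at 0.10 in place of 0.04 for Hspa5, 0.07 in place of 0.04 for Dnajc3 and 0.08 in place of 0.04 for Xbp1. Hspa13 lost its call at a larger difference, -0.20 in place of -0.14, with an SE of 0.08 in place of 0.04. Centred over the genes tested, 7 of the 12 were kept and 7 genes of the list were higher (20%), beside 11.8% of all genes, with 3 chaperones higher and 1 lower beside 6 and 1 in the main result.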

How the data were processed

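Lung RNA of 8 silica and 12 air rats was analysed, 1 array per rat. The deposited table holds a mean bead intensity per gene and array, which by its values was left without background subtraction or normalization, along with detection p-values and bead numbers that the authors also deposited. The authors' deposited log2 values, normalized between arrays, served as an alternative. The submitters' processing notes name BeadStudio, lumi and limma without their roles. The genome build of the probes was not given in the sources used here. A further 20 columns, the bead standard errors, were not used.

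Intensities were corrected with limma 3.58.1 in R 4.3.3 by normexp, with an offset of 16, which draws the differences of dim genes toward 0. Mean and SD of negative controls were read off the detection p-values of the 21109 genes that were not averages of several probes, leaving out 683. Values were then quantile-normalized on the log2 scale. A gene was tested where its detection p fell under 0.01 on 8 or more arrays. Silica and air were compared with lmFit and eBayes (intensity trend, 2-sided), and a call is a p under 0.05 after Benjamini-Hochberg adjustment across 10488 genes. The steps were tested on simulated data. Old gene names were updated through a RefSeq table of GRCr8, which also gave the promoters (33 of the genes sought had one).

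The genes and lists were chosen with earlier results of these data known. By rule every detected gene of the list is named. Values by group are given for Hspa5, Xbp1, Atf4, Ddit3, the called genes and the uncalled gene of smallest p in each role. In other lists up to 3 called genes of smallest p are named, and in some lists uncalled genes too. Rats 86, 106 and 139, left out in 1 alternative, and centring over the genes tested were chosen after seeing the data. Replicate numbers were checked for pairing: same-numbered silica and air rats correlated in their deviations from the group means at -0.23 to 0.16, with 1 of 8 pairs over 0.1. The numbers were therefore taken to name rats only. With so few pairs, the check cannot exclude a feature shared by same-numbered rats. With the number as a block, 5 genes of the list were called. Correlations used Python 3.11.15 with 40320 permutations in silica (all of them) and 100000 in air rats. The number of arrays limits the precision.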

Additional observations from a re-analysis of the deposited data

Results flagged for a closer look

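Among the 35 genes, each screened for a single silica rat far from the other 7, 2 had one, where chance gives about 1 in 20. In Pdia4, silica rat 88 was lowest, at a log2 intensity of 9.41 against 9.52 for the next lowest. In Ssr2, silica rat 84 was highest, at 11.61 against 11.29 for the next highest. Neither gene was called.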

How the results depend on the processing

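All 12 called genes were called again with limma's default control inference, with no background correction, with the authors' deposited log2 values, among genes detected on all 20 arrays and with array weights. Array weights added 3 calls, giving 13 genes higher (8 chaperones, with P4hb and Sil1 gained) and 2 lower (both chaperones, the second being Dnajb9). That was 37.1% of the list higher, beside 13.9% of all genes tested (1461 higher and 1615 lower). With median centring, 1 gene was higher and 0 lower (chaperones 1 and 0, translocon 0, stress factors 0, degradation 0), the median over the list was 0.0538, and over all genes 571 were higher and 817 lower with a median of -0.0466. Centred over the genes tested, 7 were higher, 3 of them chaperones, with an all-gene median of -0.00026. Against air rats 89 to 92 alone, 3 were higher (chaperones 1, translocon 0), the stress factor median turned to -0.0197, and over all genes 435 were higher and 333 lower with a median of -0.0116. Against 105 to 108, 6 were higher (translocon 1, degradation 0) and the stress factor median was 0.16. Against 137 to 140, 1 translocon gene was higher and the all-gene median was -0.0228. The all-gene median was -0.0059 with the default inference, -0.0098 in the deposited values and -0.0048 with no filter. With the replicate number as a block, 5 were higher and 0 lower (chaperones 2 and 0, translocon 1), beside 826 of all genes higher and 713 lower. No silica rat was most alike the air rat of its number. Leaving out 1 rat at a time gave 10 to 13 genes higher and 1 lower, with 1 or 2 stress factors, 2 being reached without air rat 91. Over all genes tested, 1072 to 1315 were then higher and 1110 to 1448 lower. The cause of these changes was not tested.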

Other observations

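Outside the list, 6 tested genes had an ERSE in their promoter, and they went both ways. Zfand2a, a proteasome-associated protein induced by arsenite, was higher in silica lungs, with a mean log2 intensity of 8.81 in silica and 8.53 in air lungs and a difference of 0.27 ± 0.06 (SE; limma adjusted p = 0.000891). Ppm1l, a phosphatase, was higher by 0.27 ± 0.10 (adjusted p = 0.0402). Foxd4 (-0.29 ± 0.04), Zfp57 (-0.29 ± 0.05) and Hnrnpa3 (-0.14 ± 0.04) were lower, and Pan2 (-0.15 ± 0.07) was not called. These genes were picked by their promoter letters, and no binding was measured.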
